A study of Mus musculus with 6 samples.

Results

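The genes described here encode enzymes and a chaperone that modify, fold and crosslink collagen: the lysyl oxidases Lox, Loxl1, Loxl2 and Loxl3, the lysyl hydroxylases Plod1, Plod2 and Plod3, the prolyl 4-hydroxylase alpha subunits P4ha1 and P4ha2, and the collagen chaperone Serpinh1. They were taken by name from a table of 13912 genes, and all 10 were present. The table holds 2 groups of 3 RNA sequencing libraries of 4T1-Luc2-RFP cells, a line of the mouse mammary carcinoma 4T1 with a luciferase and a red fluorescent protein, strain balb/c. The cultured group is the line grown in culture and not injected. The tumour group is cells isolated by fluorescence-activated sorting (FACS) from mammary gland tumours that grew after intraductal injection, which the labels call MIND tumors. Both groups carry the same 2 reporters, and no drug or engineered allele is named for either. The labels give no sort gate, tumour age or host genotype. They do not tie a library to its own animal or culture flask either. The p-values below therefore rest on the spread among 3 libraries a group, part or all of which may be technical.

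Collagen chains are modified inside the endoplasmic reticulum before they fold. Prolyl 4-hydroxylases, built from an alpha and a beta subunit, hydroxylate prolines and so stabilise the triple helix at body temperature. Lysyl hydroxylases act on lysines, PLOD1 mainly in the helix and PLOD2 mainly in the telopeptides, and PLOD3 also transfers glucose to galactosylated hydroxylysine. The chaperone HSP47, encoded by Serpinh1, binds the folded helix and escorts it towards the Golgi. Outside the cell, copper-dependent lysyl oxidases oxidise lysines and hydroxylysines to aldehydes, from which crosslinks between collagen molecules form. Stiff, crosslinked collagen around mammary tumours is a known feature of the disease.

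Levels are given as CPM, the reads of a gene relative to its library's total, or on the log2 CPM scale of the deposited table. A change is the mean of the tumour libraries less that of the cultured ones on the log2 scale, and SE is its standard error. Each test is limma's moderated test, fitted over all 13912 genes with Benjamini-Hochberg adjustment at 0.05. Of the 10 genes, 9 were higher in the tumour libraries, 0 were lower, and Plod2 did not pass the test, with a median change of 2.03. Over all genes, 29.5% were higher, 18.8% were lower and the median change was 0.08. Lox and Loxl2 had so few cultured reads (8 and 51) that their tumour reads alone brought them into a table whose least-covered gene has 61 reads in all. Among the other 8 genes, 7 were higher, with a median change of 1.26. The groups did not overlap, with the tumour libraries higher, for 9 of the 10 genes, for 7 of these 8 and for 34.6% of all genes. The changes were graded by family, from 4.19 to 11.11 for the lysyl oxidases to between 0.37 and 2.38 for the hydroxylases and the chaperone.

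**Figure D1:**
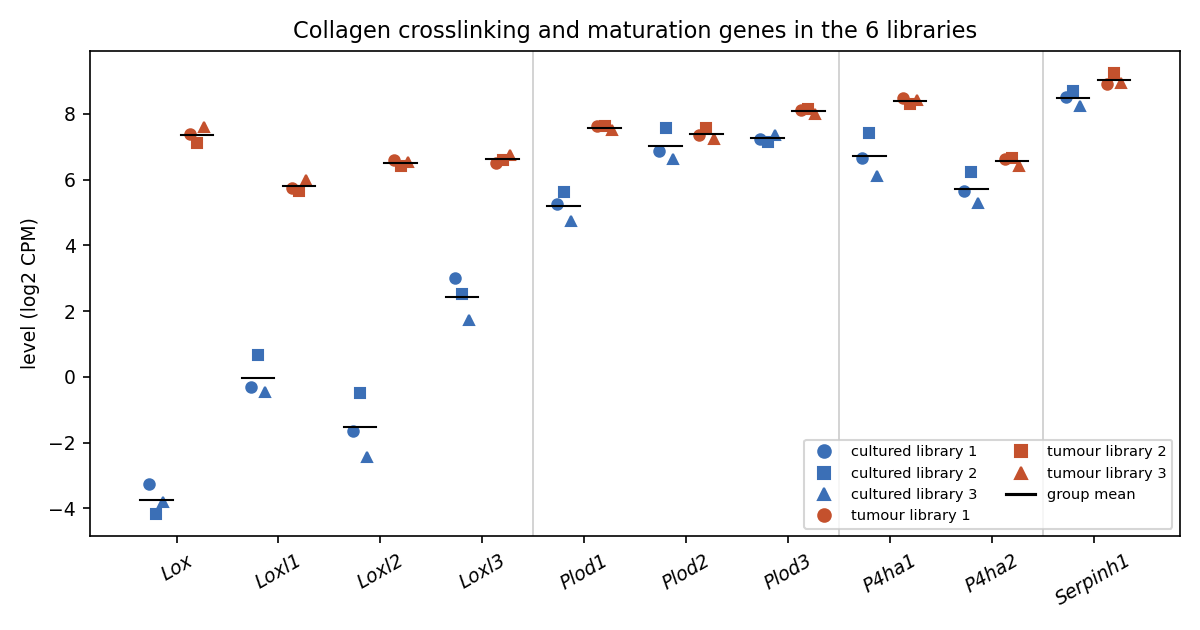
Level (log2 CPM, vertical axis) of each of the 10 genes in the 3 cultured (blue) and 3 tumour (red) libraries, with black bars for group means. The lysyl oxidases start at group means between -3.74 and 2.42 in culture and stand between 5.80 and 7.37 in the tumour libraries, while the groups overlap for Plod2.

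The libraries held 35448588 to 41469090 reads. Of 15 listed carcinoma epithelial markers, 13 were in the table, and they summed to 2906 to 3777 CPM in culture and 2878 to 3370 CPM in the tumour libraries, a sum to which the keratin genes Krt7, Krt8 and Krt18 give most. Of the 13, 6 were lower in the tumour libraries (Krt7, Cdh1, Cldn3, Esrp1, Grhl2 and Elf3), 1 was higher (Krt14) and 6 did not pass, with a median change of -0.53. Markers of host cells moved with the groups. Most of them had fewer than 61 cultured reads, and so are in the table through their tumour reads, which fixes their direction. Fibroblast markers (11 of 12 listed, all 11 higher) summed to 22.4 to 49.1 CPM in culture and 365 to 630 CPM in the tumour libraries. Most of the cultured sum came from Pdgfra, at 25.3, 48.2 and 21.9 CPM in cultured libraries 1, 2 and 3. Of the 11, 2 (Dpt and Fbln1) had 0 reads in culture. Macrophage markers (12 of 12, all higher) summed to 27.5 to 38.1 and 4406 to 6979 CPM, and none was at 0 reads. Most of their cultured sum came from Cd68, Cd14 and Mrc1. Endothelial markers (9 of 9, all higher, 3 at 0 reads in culture) summed to 1.48 to 2.94 and 102 to 156 CPM. Pericyte and smooth muscle markers (8 of 8, 7 of them higher, 2 at 0 reads in culture) summed to 0.689 to 4.33 and 260 to 311 CPM. Neutrophil markers (8 of 9, all higher, 3 at 0 reads in culture) summed to 0.0663 to 0.399 and 226 to 2675 CPM. No marker tested was at 0 reads over the tumour libraries. In RNA from a mixture, fewer cells of a type and less RNA per cell cannot be told apart. Fibroblasts are known to express most of the genes described here. The part of host cells in each change below was not tested.

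The lysyl oxidases, which make the crosslinks, had the largest changes of the 10 genes. Lox, the founding member of the family, stood at 0.0938, 0.0442 and 0.0574 CPM in cultured libraries 1, 2 and 3 (4, 2 and 2 reads) and at 168, 140 and 193 CPM in tumour libraries 1, 2 and 3. Every tumour library thus lay far above every cultured one, and the change was 11.11 (SE 0.33, limma adjusted p = 6.42e-07). Lox and Loxl2 are in the table through their tumour reads alone, which fixes the direction of both changes. With 1 CPM added before the log, the change of Lox was 7.27 (limma adjusted p = 1.73e-07), since its cultured level is close to 0. Loxl2, which is secreted and acts on basement membrane collagen IV as well as on fibrillar collagen, lies on chromosome 14 from 69609068 to 69695834 of GRCm38. It stood at 0.305, 0.707 and 0.172 CPM in culture and at 96.9, 85.1 and 93.1 CPM in the tumour libraries, with a change of 8.04 (SE 0.47, limma adjusted p = 5.49e-06). The 3 tumour values were close together, while cultured library 2 was above the other cultured libraries.

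Loxl1, known for its role in elastic fibres, lies on chromosome 9 from 58287738 to 58313186. It had 0.798, 1.59 and 0.718 CPM in culture and 54.2, 50.4 and 63.0 CPM in the tumour libraries, a change of 5.82 (SE 0.34, limma adjusted p = 5.33e-06). Loxl3, on chromosome 6 from 83034173 to 83052562, is needed for cartilage and palate collagen and was the best expressed of the 4 in culture. Its levels were 7.98, 5.79 and 3.30 CPM in culture and 90.2, 97.1 and 107 CPM in the tumour libraries. The groups did not overlap for either gene, and the change of Loxl3 was 4.19 (SE 0.31, limma adjusted p = 2.07e-05). Of the exon bases of Loxl3, 11.6% also lie in exons of Htra2 on the other strand. Whether the counting used strand is not given in the sources used here, and Htra2 had a change of -0.19 (limma adjusted p = 0.425).

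Tumour library 3 had the highest CPM of Lox, Loxl1 and Loxl3, and the highest sums of fibroblast markers (630 CPM, against 365 in tumour library 1 and 380 in tumour library 2) and of macrophage markers (6979, against 6969 and 4406). It was also the lowest of the tumour libraries for Plod1, Plod2, Plod3 and P4ha2, and for Loxl2 library 1 was the highest. Tumour library 1 had the highest sums of endothelial (156 CPM), pericyte and smooth muscle (311 CPM) and neutrophil (2675 CPM) markers. The pericyte and smooth muscle sum was lowest in tumour library 3 (260 CPM).

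Loxl4, the remaining lysyl oxidase gene, is not among the 10 but stood in a list of 25 other collagen processing genes. It went the other way. Its levels were 222, 168 and 156 CPM in culture and 46.5, 57.4 and 40.2 CPM in the tumour libraries, so that every tumour library was below every cultured one. The change was -1.92 (SE 0.20, limma adjusted p = 0.000134), a level 3.79-fold lower. To compare the paralogs, CPM was divided by the length of each gene's exons in kb. On that scale Loxl4 made up 96.4% ± 0.963 (SD, n = 3) of the summed lysyl oxidase level in culture and 11.4% ± 2.84 in the tumour libraries. Lox made up 0.0299% ± 0.00706 in culture and 34.2% ± 3.14 in the tumour libraries. In the tumour libraries Loxl3 followed with 21.0% ± 1.34, Loxl2 with 16.7% ± 1.12 and Loxl1 with 16.6% ± 0.697. The sum of the 5 genes was 44.8 ± 8.82 CPM per kb in culture and 102 ± 7.44 in the tumour libraries, a 2.26-fold difference. The summed transcript level of the family thus differed far less between the groups than that of Lox alone.

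**Figure D2:**
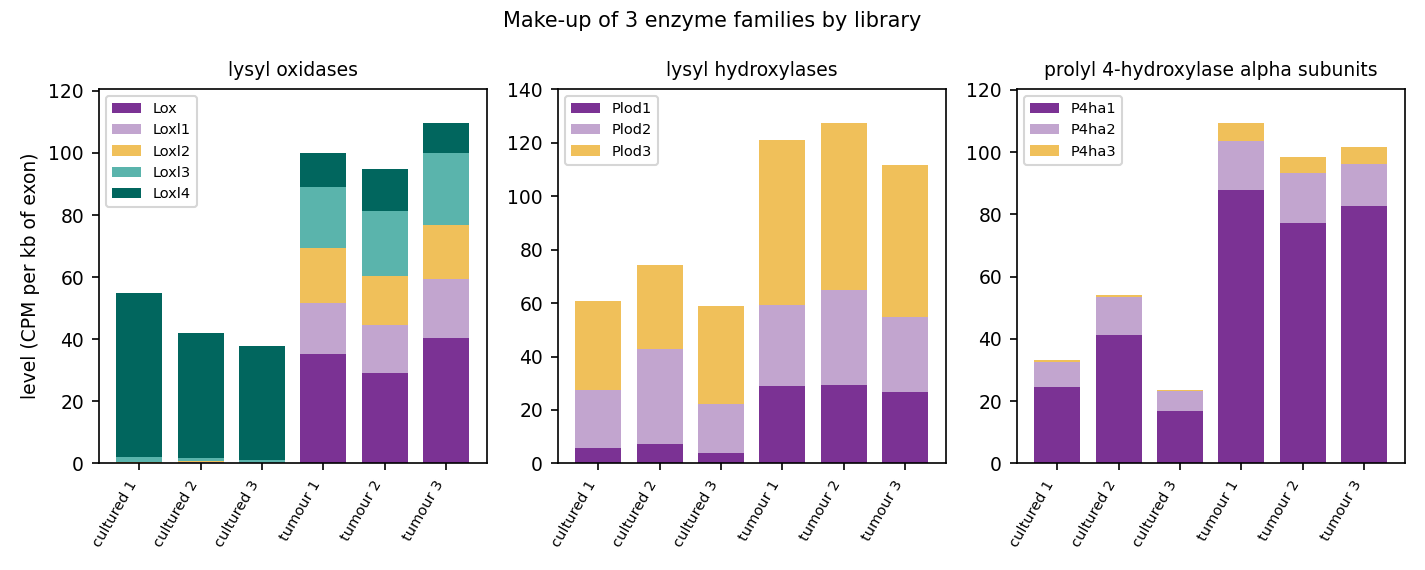
Stacked bars of CPM per kb of exon (vertical axis) for each library, split by gene, for lysyl oxidases, lysyl hydroxylases and prolyl 4-hydroxylase alpha subunits. Loxl4 fills nearly the whole lysyl oxidase bar in culture (96.4%) and 11.4% of it in the tumour libraries, where the other 4 genes share the rest.

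The lysyl hydroxylases differed among themselves. Plod1, on chromosome 4 from 147909753 to 147936767, hydroxylates lysines of the helix. It stood at 38.7, 49.4 and 26.5 CPM in culture and at 197, 199 and 181 CPM in the tumour libraries. All 3 tumour values were above all cultured ones, a 5.19-fold difference (change 2.38 with an SE of 0.23, limma adjusted p = 8.68e-05). Plod3, on chromosome 5 from 136987019 to 136996648, had 152, 142 and 165 CPM in culture and 279, 283 and 257 CPM in the tumour libraries. Its spread within groups was small and its change was 0.84 (SE 0.14, limma adjusted p = 0.00164). Exons of Znhit1 on the other strand cover 11.7% of the exon bases of Plod3, and the change of Znhit1 was 0.41 (limma adjusted p = 0.333).

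Plod2, the telopeptide lysyl hydroxylase and a known target of hypoxia-inducible factors, lies on chromosome 9 from 92542223 to 92608428. Its levels were 117, 191 and 98.4 CPM in culture and 163, 190 and 152 CPM in the tumour libraries. The groups overlapped through cultured library 2, which was the highest of all 6. The change was 0.37 (95% interval -0.22 to 0.95, limma adjusted p = 0.264), so a difference of up to 1.94-fold upwards lies within the interval. Without cultured library 2 the change was 0.64 (limma adjusted p = 0.0211), and with libraries scaled to the epithelial markers it was 0.66 (limma adjusted p = 0.0424). With libraries centred on their medians the change was 0.14 (limma adjusted p = 0.649), and after quantile normalization 0.34 (limma adjusted p = 0.316). Without cultured library 3 it was 0.17 (limma adjusted p = 0.550). Among the alternatives, Plod2 thus passed only without cultured library 2 or with scaling to the epithelial markers. It is the only 1 of the 10 genes that did not pass as deposited.

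Within each library, Plod2 was above Plod1 in culture by 1.81 ± 0.19 (SD, n = 3) on the log2 CPM scale, and below it by a mean difference of -0.20 ± 0.12 in the tumour libraries. This difference between the genes shifted by -2.01, without overlap between the groups (exact two-sided permutation p = 0.1, the smallest that 3 against 3 libraries allow, and 0.125 after adjustment over 10 such differences). Plod2 minus Plod3 shifted by -0.47, within the spread of the cultured libraries (exact two-sided permutation p = 0.2, adjusted 0.222). Per kb of exon, Plod1 made up 8.64% ± 1.72 of the lysyl hydroxylase level in culture and 23.7% ± 0.513 in the tumour libraries. The share of Plod2 was 38.1% ± 8.67 and 25.9% ± 1.55, and that of Plod3 53.2% ± 10.1 and 50.4% ± 1.03 (SD, n = 3). The summed level was 64.6 ± 8.30 CPM per kb in culture and 120 ± 7.82 in the tumour libraries.

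The prolyl 4-hydroxylase alpha subunits, which carry the catalytic site, were both higher in the tumour libraries. P4ha1, the main subunit in most cells, lies on chromosome 10 from 59323296 to 59373304. It stood at 101, 170 and 69.8 CPM in culture and at 361, 318 and 340 CPM in the tumour libraries. The groups did not overlap, and the difference was 3.19-fold (change 1.67, SE 0.30, limma adjusted p = 0.00267). P4ha2, on chromosome 11 from 54100095 to 54131665, had 50.5, 75.5 and 38.99 CPM in culture and 98.7, 101 and 85.5 CPM in the tumour libraries. The gap between the groups was narrower for P4ha2, and its change was 0.84 (SE 0.24, limma adjusted p = 0.0231). That call was lost without cultured library 1 (limma adjusted p = 0.0649), without tumour library 1 (0.0756), 2 (0.0768) or 3 (0.0513), and with each library centred on its median (0.0588).

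P4ha2 minus P4ha1 was -1.003 ± 0.17 in culture and -1.84 ± 0.17 in the tumour libraries (SD, n = 3, log2 CPM). It shifted by -0.83, without overlap between the groups (exact two-sided permutation p = 0.1, adjusted 0.125). Per kb of exon, P4ha1 made up 74.1% ± 2.54 of the alpha subunit level in culture and 80.0% ± 1.499 in the tumour libraries, where P4ha3 reached 5.20% ± 0.0490 from 1.51% ± 0.583 (SD, n = 3).

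Serpinh1, on chromosome 7 from 99345376 to 99353239, had the highest level per kb of the 10 genes in both groups. It stood at 365, 418 and 300 CPM in culture and at 482, 609 and 495 CPM in the tumour libraries. The groups were close but did not overlap, and the difference was 1.47-fold (change 0.56, SE 0.19, limma adjusted p = 0.0412). The call was lost without cultured library 1 (limma adjusted p = 0.0752) and without tumour library 1 (0.0870), 2 (0.136) or 3 (0.102). It was also lost with libraries centred on their medians (0.168), after quantile normalization (0.177) and without a variance trend (0.0619).

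Ordered by level per kb of exon in culture, Serpinh1 (148 ± 24.2 CPM per kb, SD, n = 3) was followed by Plod3 (33.8 ± 2.61), P4ha1 (27.6 ± 12.5) and Plod2 (25.1 ± 9.09), and these last 3 overlapped each other. P4ha2 (8.82 ± 2.99) overlapped Plod1 (5.65 ± 1.70). Loxl3 (1.24 ± 0.508), Loxl1 (0.314 ± 0.146), Loxl2 (0.0730 ± 0.0515) and Lox (0.0136 ± 0.00538) came last, each clear of its neighbours. In the tumour libraries the span was much narrower. Serpinh1 (216 ± 28.6), P4ha1 (82.5 ± 5.30) and Plod3 (60.4 ± 3.09) led without overlap. Lox, at 34.9 ± 5.61 CPM per kb, had moved from the last place to the fourth and overlapped Plod2 (31.2 ± 3.70), which overlapped Plod1 (28.4 ± 1.44). Loxl3 (21.3 ± 1.88) was clear of its neighbours. Loxl2 (17.0 ± 1.12), Loxl1 (16.9 ± 1.96) and P4ha2 (15.3 ± 1.36) overlapped in turn.

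Several of these genes varied together among the cultured libraries. In 7 of the 10 genes, cultured library 2 was highest and library 3 lowest, an order found in 20.9% of all genes. This order was picked after the values were seen, so the count is a description and no test. Genes known to respond to hypoxia followed a like pattern. Of 19 hypoxia targets, 10 had this same order, beside 20.9% of all genes. In all, 15 were highest in cultured library 2 and 12 were lowest in library 3, beside 31.8% and 37.9% of all genes. Their median level was 6.05, 7.05 and 5.52 log2 CPM in cultured libraries 1, 2 and 3, and 7.83, 7.59 and 7.72 in tumour libraries 1, 2 and 3. Against the mean of the other cultured libraries, cultured library 2 was higher by 1.02 for P4ha1, 0.83 for Plod2, 0.77 for P4ha2 and 0.34 for Serpinh1, beside a median of 1.19 for the hypoxia targets. It was higher by 1.56 for Loxl2, 1.06 for Loxl1, 0.63 for Plod1 and 0.17 for Loxl3. The difference was -0.16 for Plod3 and -0.66 for Lox. Few reads underlie 2 of these values: 13, 32 and 6 for Loxl2 and 4, 2 and 2 for Lox in cultured libraries 1, 2 and 3. The part of oxygen supply in these values was not tested.

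Of the 19 hypoxia targets, 11 were higher in the tumour libraries and 0 lower, beside 29.5% and 18.8% of all genes, with a median change of 1.32 beside 0.08. Adm, a vasodilator peptide, had a change of 7.80 from 6 cultured reads. It is in the table through its tumour reads alone, which fixes its direction. Other examples are Pfkfb3, a regulator of glycolysis, with 2.98, Bnip3, a mitophagy receptor, with 2.48, and Vegfa, the angiogenic growth factor, with 2.39. By limma the adjusted p-values of Adm, Pfkfb3, Bnip3 and Vegfa were 1.52e-05, 0.00111, 0.00524 and 0.0203. P4ha1 and P4ha2, known targets of hypoxia-inducible factors like Plod2, passed the test as deposited, while Plod2 did not, and the difference between their changes was not tested.

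**Figure D3:**
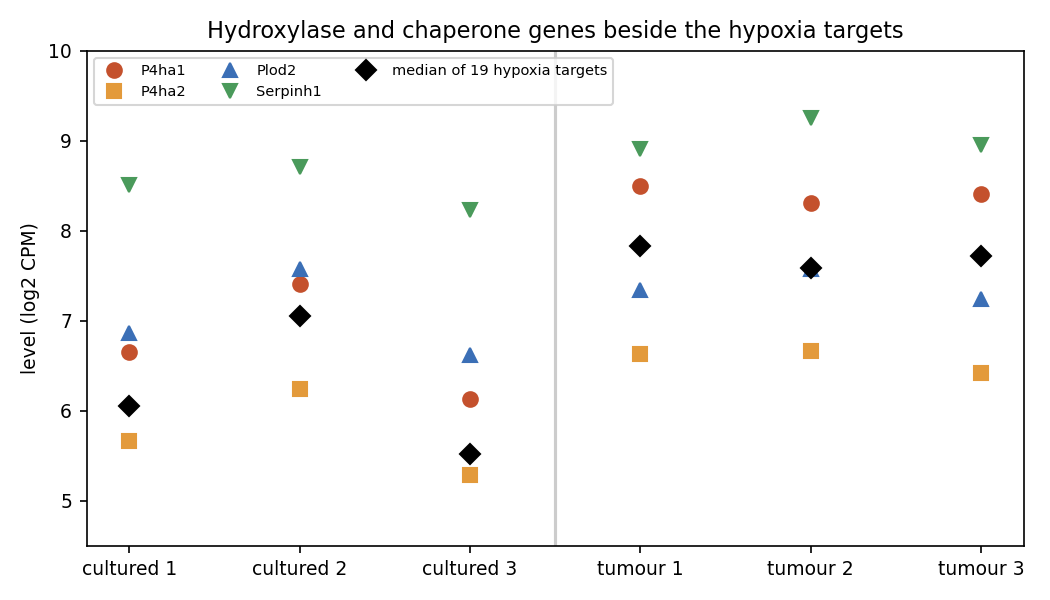
Level (log2 CPM, vertical axis) of P4ha1, P4ha2, Plod2 and Serpinh1 in each of the 6 libraries, with the median level of 19 hypoxia targets as black diamonds. Cultured library 2 is the highest of the cultured libraries for all 5 series, and the tumour libraries lie close together.

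The promoters were searched for ACGTG, the letters at the core of the hypoxia response element, on both strands and in the 250 bases before the start of transcription. Lox was left out of this search, so the counts below say nothing of its promoter. No RefSeq promoter (build GRCm38.p6) was matched for Loxl1, Loxl2, Loxl3 or Plod2. Promoters were matched for the remaining 5 of the 10 genes. The letters were found in 4 of these, P4ha1, P4ha2, Plod3 and Serpinh1, and not in that of Plod1. They occur in 16.6% of all 32851 RefSeq promoters of that length, and in 21.0% of those of genes in the table. The window of P4ha2 precedes a start that lies inside the gene as placed above, downstream of its outermost annotated start. The E-box CACGTG holds the same letters, so a match does not name a factor. In the sequences below, the strand of the gene is shown 5′ to 3′, and capitals mark ACGTG or its reverse complement CACGT. P4ha1 and P4ha2 are shown as the pair of prolyl hydroxylase genes that rose, Serpinh1 as the chaperone, and Plod1 as a gene with no match in this window. P4ha1, P4ha2 and Serpinh1, each with a match, and Plod1, with none, had the order of cultured libraries described above. Plod3, with a match, did not. Whether matches and that order go together was not tested.
P4ha1, chr10:59323046-59323295, plus strand: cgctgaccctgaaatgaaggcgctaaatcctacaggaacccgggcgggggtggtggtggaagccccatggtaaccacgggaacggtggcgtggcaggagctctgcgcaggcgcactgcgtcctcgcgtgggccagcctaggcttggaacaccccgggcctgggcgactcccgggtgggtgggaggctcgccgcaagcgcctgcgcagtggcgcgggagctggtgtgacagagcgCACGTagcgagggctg
P4ha2, chr11:54100674-54100923, plus strand: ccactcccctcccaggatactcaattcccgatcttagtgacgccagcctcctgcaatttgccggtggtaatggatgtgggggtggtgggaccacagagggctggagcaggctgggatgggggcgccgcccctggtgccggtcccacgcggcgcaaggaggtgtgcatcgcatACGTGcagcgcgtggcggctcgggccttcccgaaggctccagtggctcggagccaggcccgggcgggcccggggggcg
Serpinh1, chr7:99353240-99353489, minus strand: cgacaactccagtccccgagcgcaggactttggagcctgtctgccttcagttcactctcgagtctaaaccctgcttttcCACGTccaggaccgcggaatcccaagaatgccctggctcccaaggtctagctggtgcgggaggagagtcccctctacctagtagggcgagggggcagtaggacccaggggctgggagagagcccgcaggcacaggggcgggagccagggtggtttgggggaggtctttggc
Plod1, chr4:147936777-147937026, minus strand: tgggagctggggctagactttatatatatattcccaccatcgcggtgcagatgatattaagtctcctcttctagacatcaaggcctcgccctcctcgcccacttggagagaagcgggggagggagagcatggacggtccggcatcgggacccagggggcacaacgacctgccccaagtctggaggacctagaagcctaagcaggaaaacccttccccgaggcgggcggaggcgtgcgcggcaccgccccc
The match lies 16 bases before the start in P4ha1, 78 in P4ha2 and 171 in Serpinh1, counted from the match's 5′ end on the printed strand. A match of letters is a description of the sequence and no measure of binding.

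The other genes of the pathway came from a list of 25, of which 23 were in the table. Of these, 15 were higher in the tumour libraries, 3 were lower and 5 did not pass, with a median change of 1.44 beside 0.08 for all genes. Adamts2, Tll1, Creb3l1, Fkbp10 and Colgalt2, with 0 to 5 cultured reads, are in the table through their tumour reads alone. Of the other 18 genes, 10 were higher and 3 lower, with a median change of 0.99, beside 29.5% and 18.8% of all genes. Among the genes that rose, P4hb, the beta subunit of prolyl 4-hydroxylase and a disulfide isomerase, stood at 686 ± 168 CPM in culture and 1829.9 ± 180 CPM in the tumour libraries (SD, n = 3), a change of 1.44 (SE 0.23, limma adjusted p = 0.00136). P4ha3, the third alpha subunit, had a change of 3.42 (limma adjusted p = 1.43e-05). The prolyl 3-hydroxylase genes P3h1 and P3h3 and their relative P3h4 rose with changes of 1.27, 2.48 and 1.86, while P3h2 fell, with a change of -1.33 (SE 0.31, limma adjusted p = 0.00903). Fkbp10, an endoplasmic reticulum prolyl isomerase needed for telopeptide lysine hydroxylation, had 5 reads over the cultured libraries and 35.9 ± 3.36 CPM (SD, n = 3) in the tumour libraries. Its relative Fkbp14 had a change of 2.24. Ppib, the isomerase cyclophilin B, fell, with a change of -0.55 (SE 0.17, limma adjusted p = 0.0316).

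Enzymes that trim procollagen outside the cell also rose. Adamts2, which removes the amino-terminal propeptide, had 0 reads in culture and stood at 52.6, 46.8 and 56.7 CPM in the tumour libraries, at least 2128-fold higher against a floor of 3 reads over the cultured group. Bmp1, the carboxy-terminal procollagen proteinase, changed by 1.26 (SE 0.15, limma adjusted p = 0.000329), and its enhancer Pcolce by 1.83 (SE 0.22, limma adjusted p = 0.000317). Tll1, a relative of Bmp1, had 0 reads in culture and 0.734 ± 0.214 CPM (SD, n = 3) in the tumour libraries, at least 30.04-fold higher. Adamts14 had a change of 0.61 and the collagen galactosyltransferase gene Colgalt2 one of 4.68, from 5 cultured reads. Creb3l1, a transcription factor of collagen-secreting cells, had a change of 8.33 from 4 cultured reads, and Sparc, a collagen-binding matricellular protein gene, one of 2.67. The 5 that did not pass were Crtap, Colgalt1, Pcolce2, Mia3 and Tmem38b, with changes between -0.61 and 0.71.

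**Figure D4:**
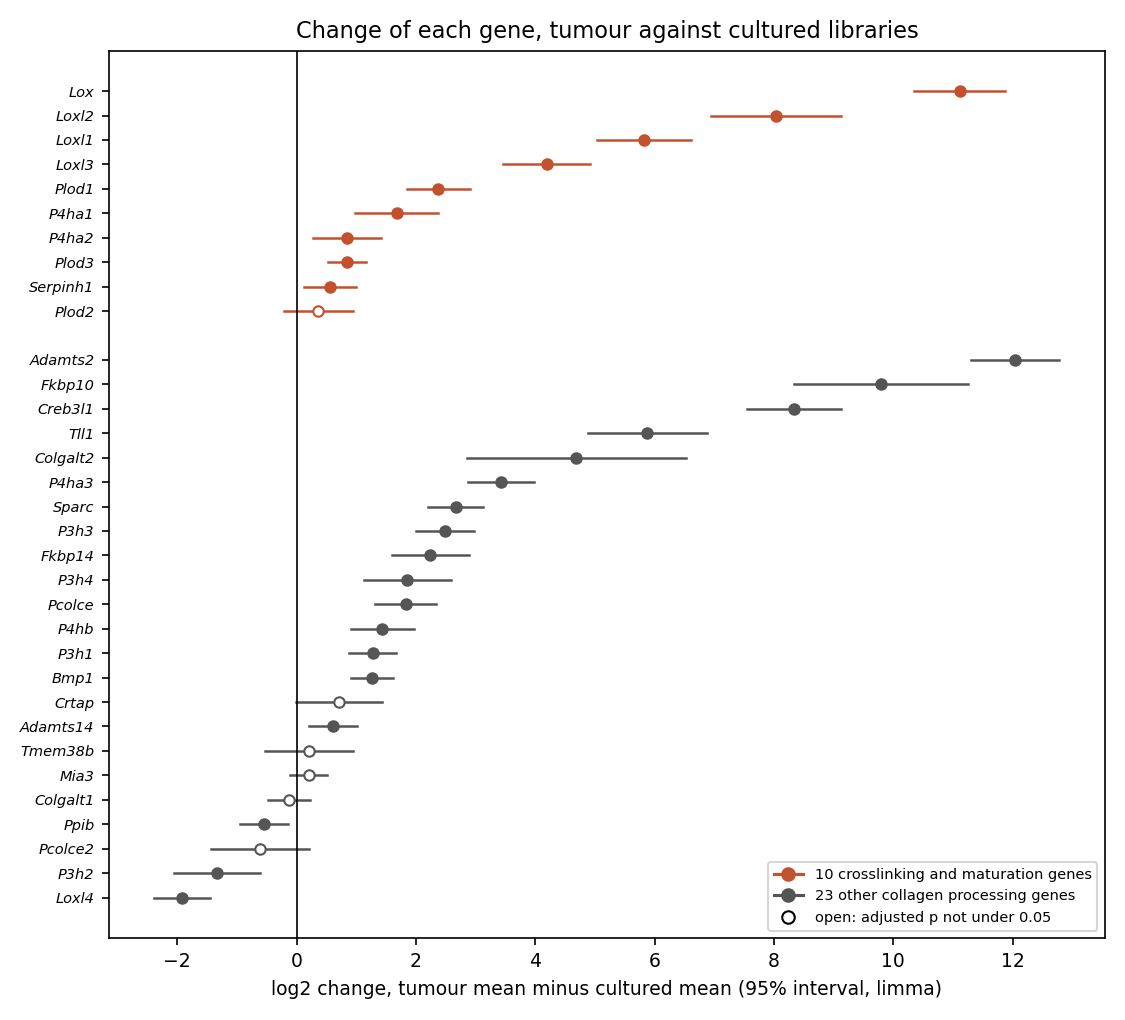
Change (tumour minus cultured mean, log2 scale, horizontal axis) with its 95% interval for the 10 genes (red) and 23 other collagen processing genes (grey), with open circles for genes that did not pass. The intervals of 3 grey genes, Loxl4, P3h2 and Ppib, lie wholly below 0, and that of Plod2 spans 0.

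Of 9 fibrillar collagen and elastin genes tested, 9 were higher in the tumour libraries, beside 29.5% of all genes. Col11a1 and Eln had 0 reads in culture, and with these set to their bounds the median change was 9.53. Col1a2, Col3a1 and Col5a2, with 58, 38 and 12 cultured reads, are likewise in the table through their tumour reads alone, which fixes the direction of all 5. The other 4, Col1a1, Col5a1, Col5a3 and Col11a2, were higher with a median change of 4.03, beside 0.08 for all genes. Col1a1, the main chain of collagen I, stood at 1.26 ± 0.543 CPM in culture and 2227 ± 79.4 CPM in the tumour libraries (SD, n = 3). Its change was 10.88 (SE 0.33, limma adjusted p = 6.42e-07), and those of Col3a1, Col5a2 and Col1a2 were 12.91, 12.46 and 11.94. Col5a1, singled out after its values were seen, already stood at 135 ± 33.2 CPM in culture and at 562 ± 38.7 CPM in the tumour libraries (SD, n = 3).

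Set against Col1a1 within each library, Serpinh1, Plod2 and P4ha2 were above it in culture and below it in the tumour libraries. Each shift is the change of the gene less that of Col1a1, so all share the change of 10.88 of Col1a1. Serpinh1 minus Col1a1 was 8.25 ± 0.48 in culture and -2.08 ± 0.22 in the tumour libraries (SD, n = 3, log2 CPM), a shift of -10.33. The shift was -10.52 for Plod2 and -10.04 for P4ha2. Loxl1 minus Col1a1 was -0.26 ± 0.47 in culture and -5.32 ± 0.18 in the tumour libraries, a shift of -5.06. None of these differences overlapped between the groups (exact two-sided permutation p = 0.1 each, adjusted 0.125). Lox minus Col1a1 was -3.98 ± 0.90 in culture and -3.75 ± 0.23 in the tumour libraries, a shift of 0.23 within the spread of the cultured libraries (exact two-sided permutation p = 0.9, adjusted 0.9). The cultured value rests on 8 reads of Lox, and the shift turned to -2.70 with 1 CPM added before the log, -0.57 after quantile normalization and -0.27 without cultured library 2. It gives no direction. Within the family, Lox minus Loxl2 shifted by 3.07 and Loxl3 minus Loxl2 by -3.84, both without overlap (exact two-sided permutation p = 0.1, adjusted 0.125). Both shifts rest on few cultured reads, 51 for Loxl2 and 8 for Lox. With 1 CPM added before the log they were 1.21 and -2.11.

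For 4 of the genes, the 3 others whose profile over the 6 libraries was most like theirs were found by Euclidean distance, after each gene was centred on its own mean. For Lox these were Osm, a cytokine, Fcgr3, an Fc receptor, and Msr1, a scavenger receptor of macrophages, at distances of 0.53, 0.53 and 0.62 log2 units. For Plod2 they were Hscb, Bri3 and Ackr3 (0.20, 0.20 and 0.21), and for P4ha1 Lrrc61, Zfp951 and Tmie (0.21, 0.26 and 0.27). For Serpinh1 they were Shf, Apoa1bp and Zfp784 (0.13, 0.14 and 0.17). With 2 groups and 6 libraries this measure mostly matches the size of the change.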

How the data were processed

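The authors deposited 1 table of log2 values per gene. Per the submitters' processing notes, HISAT (alignment), HTSeq (counting) and limma were used with the mouse build mm10; versions are not given in the sources used here. The deposited log2 values have the form of log2 CPM with 0.5 reads added and library totals scaled as by voom with TMM. Solving for reads gave whole numbers, within 0.01, in 100% of values. CPM were computed from these reads and the scaled totals, and reads are not independent molecules, so floors cover counting error only.

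Groups were compared with limma 3.58.1 (R 4.3.3) on the log2 values, with a variance trend. The fit was tried on simulated reads with 200 changed genes and the same dispersion for every gene. Far more genes, 6711, were called here, so that trial does not show how the fit behaves on these data. No count model was run, because the deposited unit is log2. Within-library differences used exact permutation tests (scipy 1.17.1). Gene positions and exon lengths (union of exons) are from GENCODE on GRCm38. The genes, lists and tests were chosen with earlier results of these data known. Family shares per kb, the promoter search and the order of cultured libraries were added after the values were seen. Named are the 10 genes, all called genes of the processing list, up to 4 called genes with the largest change in each other list, and the 3 nearest genes. Alternatives were other scalings, no variance trend, library weights, a filter at 1 log2 CPM, log2(CPM + 1), and leaving out each library.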

Additional observations from a re-analysis of the deposited data

How the results depend on the processing

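Of 130 refits of the 10 genes' changes, 116 kept direction and side of the threshold, 12 lost the call (5 for P4ha2, 7 for Serpinh1), 2 gained it (Plod2) and 0 changed direction. The count of the 10 genes that were higher was 9, and ranged from 7 to 10. That of other collagen processing genes that were higher was 15, and ranged from 12 to 16. Over all genes, 6711 changed (4821 to 8505). The genes lower in the tumour libraries numbered 2612, with 5513 after quantile normalization, 1285 with scaling to the epithelial markers, 1558 without tumour library 1 and 1520 without tumour library 3. Leaving out 1 library in turn gave 1520 to 3301. Of the changed genes, the part that was higher made up 61.1% as deposited, 48.1% with libraries centred on their medians, 35.2% with quantile normalization and 79.5% with scaling to the epithelial markers. The median change of all genes under these was 0.08, -0.14, -0.32 and 0.37. Of 80 refits of the within-library differences, 77 kept their direction. Lox minus Col1a1, at 0.23, was -0.57 after quantile normalization, -2.70 with 1 CPM added and -0.27 without cultured library 2, with leave-one-out values from -0.27 to 0.60. The cause was not tested. Leaving out 1 library raises the smallest exact p to 0.2. No paired analysis was possible because no number in the labels is common to both groups. Depth limits Lox and Loxl2 in culture, at 8 and 51 reads.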

Other observations

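Genes that supply cofactors of these enzymes were listed as a group. Of the 5, 1 was higher and 0 were lower in the tumour libraries, beside 29.5% and 18.8% of all genes. Atp7a, the pump that loads copper onto lysyl oxidases in the Golgi, stood at 40.0 ± 7.66 CPM in culture and 135 ± 40.4 CPM in the tumour libraries (SD, n = 3), a change of 1.73 (SE 0.25, limma adjusted p = 0.00077). The copper importer Slc31a1 and the copper chaperone Atox1 had changes of 0.45 and 0.85 (limma adjusted p = 0.0535 and 0.0513). The ascorbate transporter Slc23a2 and the zinc transporter Slc39a13 had changes of -0.63 and -0.27 (limma adjusted p = 0.0815 and 0.192).

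Basement membrane collagen genes are substrates of Loxl2 and Plod3. Of 4 tested, 1 was higher and 0 were lower, beside the same shares of all genes, with a median change of 0.32 beside 0.08. Col4a1 stood at 508 ± 97.4 CPM in culture and 770 ± 76.7 CPM in the tumour libraries (SD, n = 3), with a change of 0.61 (limma adjusted p = 0.0347). Col4a2, at 357 ± 44.2 and 377 ± 26.8 CPM, had a change of 0.09 (limma adjusted p = 0.683). The difference between the fibrillar and basement membrane genes was not tested.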
